A study of Mus musculus with 16 samples.

Results

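The smooth muscle contractile genes examined here were 33 genes given by symbol, all of which were found among the 24940 genes counted in mouse terminal ileum. They were followed over 16 libraries, 1 per mouse, in 4 groups of 4 mice. All mice were C57BL/6 and carried loxP-flanked Bcl6 (Bcl6 fl/fl), the gene of the transcriptional repressor BCL6. The control groups, male WT and female WT, had Bcl6 fl/fl alone. The hepatic knockout groups, male LKO and female LKO, also carried Alb-cre, in which the albumin promoter drives Cre recombinase in hepatocytes, so that the ileum keeps its Bcl6 by design. The labels give neither the ages nor the feeding state of these mice.

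The wall of the ileum holds an inner circular and an outer longitudinal layer of smooth muscle, with a thin muscle sheet under the mucosa. Contraction begins when calcium enters through voltage-gated channels or leaves internal stores, binds calmodulin and activates myosin light chain kinase, which phosphorylates the regulatory light chain so that myosin can pull on actin. Myosin phosphatase reverses this step, nitric oxide acting through cyclic GMP favours relaxation, and acetylcholine from enteric neurons favours contraction through muscarinic receptors. Many of these genes are known targets of serum response factor with its coactivator myocardin, which act through a DNA element called the CArG box.

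The sequence upstream of the start of each gene was searched for this element, because the genes varied together over the libraries. RefSeq windows (GRCm38.p6) from 250 bases before to 50 bases after a start were on hand for 28 of the 33 genes, in 36 windows. A CArG box, searched in its strict form on both strands, lay in 2 of these windows (5.56%), against 1.63% of all 32851 windows. It lay upstream of Myl9, the regulatory light chain, whose level followed that of the myosin heavy chain gene Myh11 closely, and of Dmd (dystrophin), whose level did not, as described further on. The 250 bases before both starts are shown 5′ to 3′, with the box in capitals. Both genes are on the plus strand, Myl9 at chr2:156775214-156775463 and Dmd at chrX:82948620-82948869. The box begins 161 bases before the Myl9 start and 98 bases before this Dmd start. Dmd had a further window, at another start, without the box.
Myl9: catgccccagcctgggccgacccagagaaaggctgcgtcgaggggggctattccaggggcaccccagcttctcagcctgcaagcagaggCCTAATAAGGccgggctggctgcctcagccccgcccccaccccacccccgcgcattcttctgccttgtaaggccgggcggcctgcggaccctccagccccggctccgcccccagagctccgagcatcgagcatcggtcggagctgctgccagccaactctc
Dmd: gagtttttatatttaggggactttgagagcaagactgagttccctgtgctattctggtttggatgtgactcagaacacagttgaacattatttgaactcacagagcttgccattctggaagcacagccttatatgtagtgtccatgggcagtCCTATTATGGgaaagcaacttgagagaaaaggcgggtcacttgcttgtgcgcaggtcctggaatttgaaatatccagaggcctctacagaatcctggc
The absence of the box in the windows of the other 26 genes says only that these letters are not in those windows.

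The gene counts of 15 libraries summed to between 15.7 and 20.5 M, and female LKO replicate 1 was deeper at 60.3 M. At these depths 3 counts equalled 0.0497 to 0.191 counts per M (CPM), counting error only, and the lowest count of any of the 33 genes in any library was 19. All 8 epithelial markers examined were present, summing to between 17770 and 22500 CPM. In 4 libraries (male WT 2, female WT 3, female LKO 2 and female LKO 3) the B cell gene Ms4a1 lay between 6.74 and 40.1 CPM, and counts of calls are therefore also given without them. CPM values were scaled with TMM factors (trimmed mean of M-values).

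The 33 genes spanned a wide range of levels per length. Per kb of the counted transcript, 12 genes averaged over 100 CPM, 9 lay between 10 and 100 CPM and 12 lay below 10 CPM. The most abundant were Tpm1 (tropomyosin 1) at 499.9 CPM per kb, Myl9 at 486 CPM per kb and the 2 smooth muscle actins, with Actg2 (gamma, the enteric form) at 387.7 CPM per kb and Acta2 (alpha, the vascular form that visceral muscle also makes) at 378.5 CPM per kb. Tagln (transgelin, an actin-binding protein) followed at 344.5 CPM per kb. These neighbours overlapped between libraries, so their order holds for the means alone. Myh11 averaged 164.3 CPM per kb and Mylk, the myosin light chain kinase, 117.5 CPM per kb. At the other end 4 genes lay below 1 CPM per kb, among them the coactivator Myocd at 0.49 CPM per kb and the calcium release channel Ryr2 at 0.30 CPM per kb. Ppp1r12b, a regulatory subunit of myosin phosphatase, also fell in this range at 0.803 CPM per kb, but it was counted on a non-coding transcript that covers 11.9% of the gene's RefSeq interval, so its value does not stand for the coding mRNA.

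**Figure D1:**
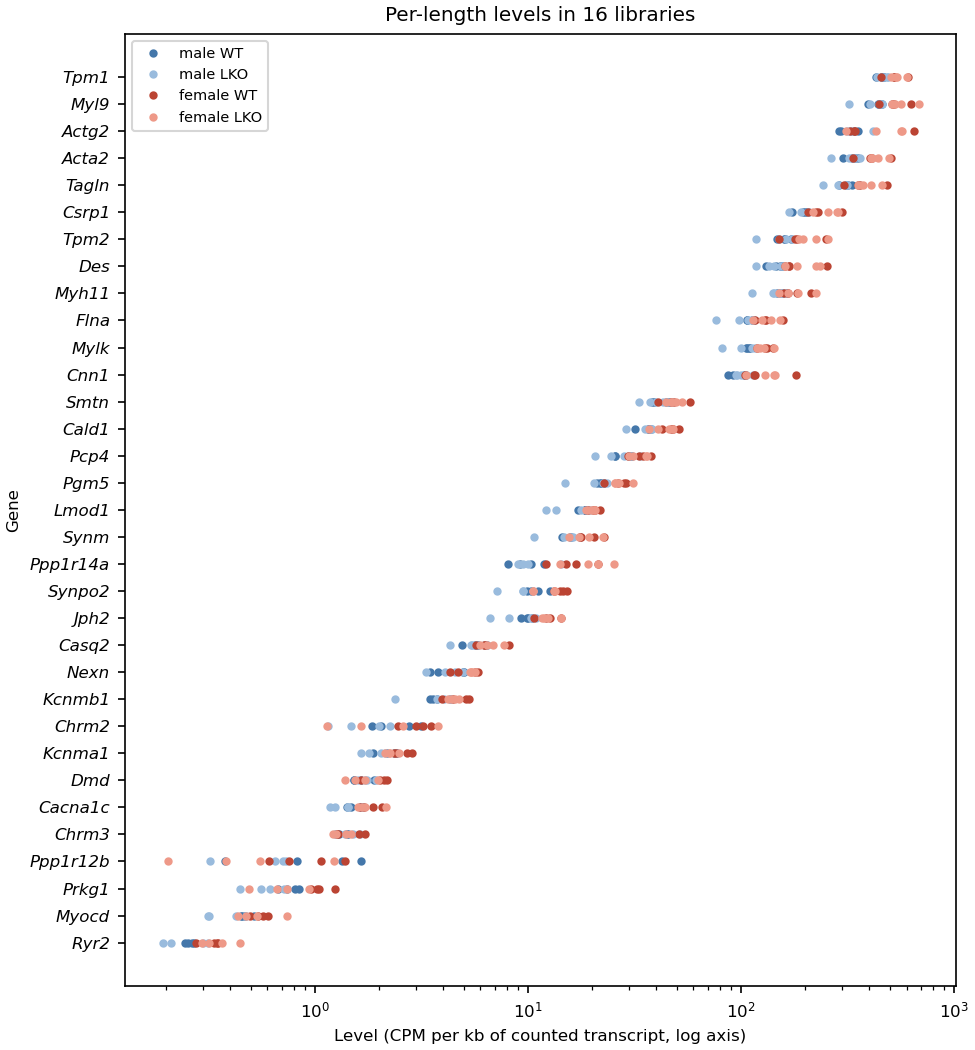
Level per length of each of the 33 genes (CPM per kb of counted transcript, log axis), 1 point per library, coloured by group. Tpm1 stands highest with a mean of 499.9 CPM per kb and Ryr2 lowest with 0.30 CPM per kb, and the libraries of a gene spread far less than the genes do.

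The amount of this RNA differed between pieces of ileum. The summed level of the 33 genes ran from 6358 CPM in male LKO 3 to 11880 CPM in female WT 2, a 1.87-fold range, or 0.602% to 1.21% of the TMM-unscaled counts. It was 8044 ± 261 CPM in male WT, 7638 ± 874 CPM in male LKO, 9782 ± 1489 CPM in female WT and 10110 ± 1206 CPM in female LKO (SD, n = 4 each). Every male library, up to 8325 CPM, lay below every female library, from 8360 CPM, although only by a small step. In whole tissue, fewer muscle cells and less RNA per cell cannot be told apart.

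The same libraries were extreme for most genes. Male LKO 3 was the lowest library for 24 of the 33 genes, and female WT 2 was the highest for 16 and female LKO 2 for 10. A gene's highest library exceeded its lowest by 1.41-fold (Tpm1) to 8.06-fold (Ppp1r12b), with a median of 2.07-fold.

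**Figure D2:**
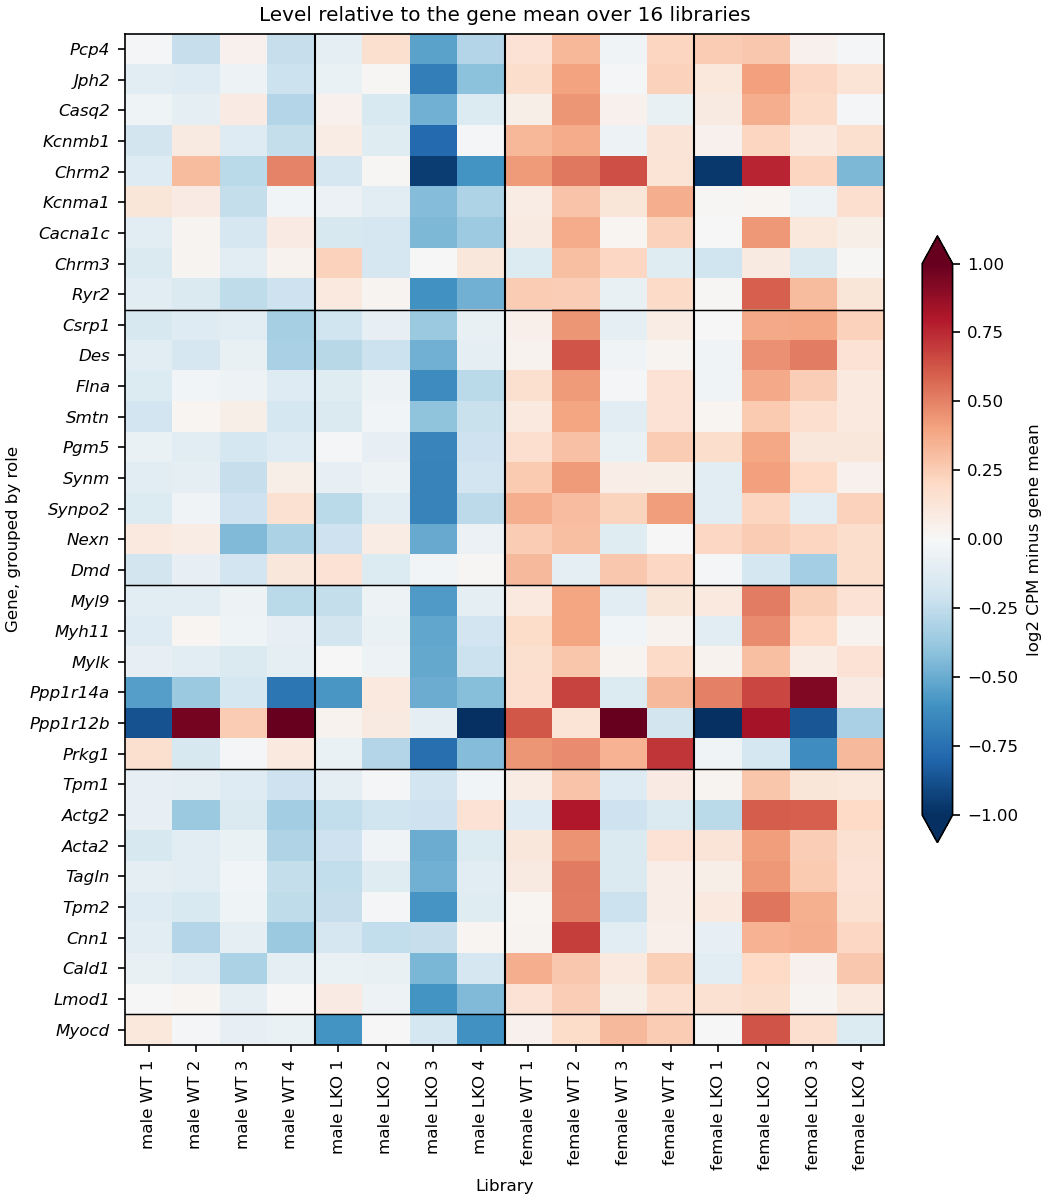
Level of each of the 33 genes in each of the 16 libraries as log2 CPM minus the gene's mean, with genes grouped by role and lines between the groups of mice. Male LKO 3 is the lowest library for 24 genes, and female WT 2 and female LKO 2 are the highest for 16 and 10 genes.

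Single libraries showed the pattern in the major contractile proteins. Myh11, the smooth muscle myosin heavy chain (mm10 chromosome 16, 14194527 to 14291408), stood at 977.9, 1086, 1036 and 1008 CPM in male WT and at 938.6, 1019, 746.7 and 934.3 CPM in male LKO. In females it stood at 1212, 1407, 1051 and 1098 CPM in WT and at 994.6, 1484, 1227 and 1098 CPM in LKO. Male LKO 3 was lowest, female LKO 2 highest, and all groups overlapped with at least one other. Acta2 (chromosome 19, 34240336 to 34255373) was measured at 855, 884.8, 913.8 and 775.9 CPM in male WT and at 827.5, 933.7, 676.6 and 870.4 CPM in male LKO. Its female values were 1033, 1305, 862.4 and 1055 CPM in WT and 1047, 1275, 1133 and 1061 CPM in LKO. The female LKO libraries all lay above the male ones, while female WT 3 lay among the males.

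Tagln (chromosome 9, 45929628 to 45936058) behaved likewise. It read 502.6, 494.9, 525 and 454.1 CPM in male WT, and 451.7, 492.4, 383 and 497.2 CPM in male LKO. In females it read 570.6, 766.5, 483.8 and 560.9 CPM in WT, and 558, 724.3, 644 and 593.7 CPM in LKO. Only female WT 3 fell within the male range. Des, the muscle intermediate filament protein desmin (chromosome 1, 75360292 to 75368579), reached 467.5, 449.2, 479 and 402.6 CPM in male WT and 415.8, 435.3, 360.5 and 473.2 CPM in male LKO. Its female values were 515.2, 779.2, 491.8 and 514.9 CPM in WT and 492.9, 690.5, 720.2 and 558.1 CPM in LKO. All 8 female libraries lay above all 8 male libraries for Des, though by little at the boundary.

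Actg2 (chromosome 6, 83512909 to 83536251) departed from this pattern. It was measured at 462.2, 378.5, 441.7 and 385.4 CPM in male WT and at 412.4, 426.9, 423.4 and 541.9 CPM in male LKO. In females it was measured at 448.5, 850.4, 424.8 and 441.9 CPM in WT and at 405.2, 745.1, 739.3 and 561 CPM in LKO. Male LKO 3, lowest for most genes, was not low for Actg2, and 3 female libraries stood far above the rest. The ratio of Actg2 to Acta2, each per kb, ran from 0.760 in female LKO 1 to 1.28 in female LKO 3, and female WT 2, male LKO 3 and male LKO 4 were also above 1.2.

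**Figure D3:**
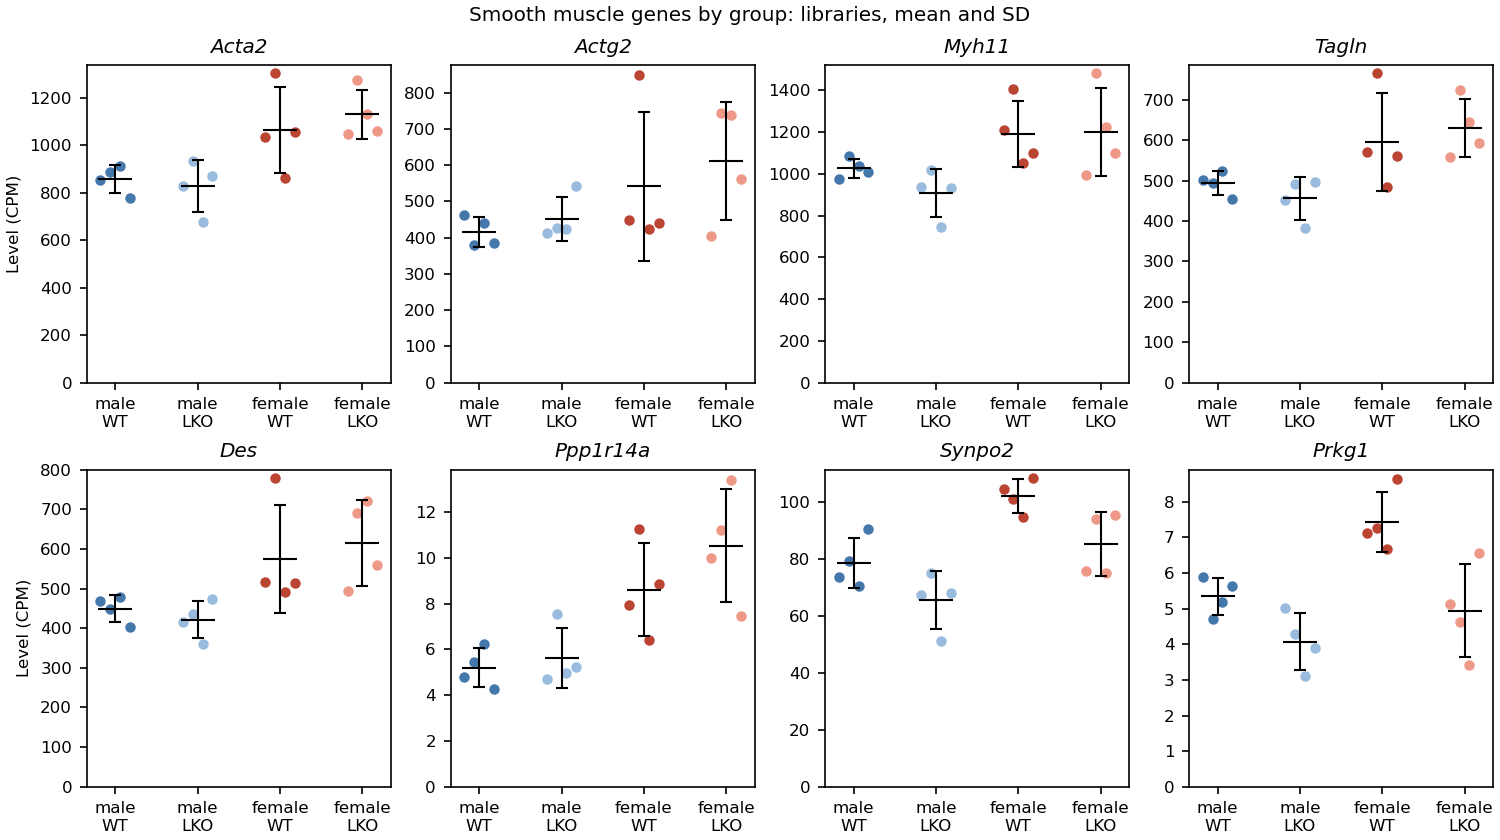
Level in CPM of 8 of the genes in each library (points), with the mean and SD of each group of 4 (black), on axes that start at 0. Female groups stand higher for most of them, the mean of Prkg1 is lower in LKO than in WT in each sex, and Actg2 has 1 female WT library at 850.4 CPM.

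The comparison of LKO with WT asked whether deleting Bcl6 in hepatocytes changes the ileum. In edgeR's quasi-likelihood test, with p-values adjusted over all genes tested by the Benjamini-Hochberg method, none of the 33 genes had an adjusted p below 0.05. This held in males (0 of 33, against 0.0527% of 15169 genes tested), in females (0 of 33, against 0.0392% of 15298) and in both sexes together with sex as a covariate (0 of 33, against 0.269% of 15598). All 33 genes passed the filter on low counts in each comparison. At an unadjusted p below 0.05, 4 genes were lower in LKO in males (2.28% of all genes), 2 in females (6.75%) and 5 over both sexes (6.57%). DESeq2 called 0 of the 33 genes in males, 0 in females and 1 over both sexes, Prkg1, where it called 0.904% of all genes as lower. The median log2 difference of the 33 genes was -0.09 in males, 0.01 in females and -0.05 over both sexes, beside 0.00 over all genes in males and both sexes and 0.01 in females. It was below 0 for 26 of the 33 genes in males (50.8% of all genes), 16 in females (48.2%) and 22 over both sexes (49.8%). Male LKO 3, the lowest library for 24 of the 33 genes, enters the male and the joint counts. With 1 male library left out, the male difference ran from -0.11 to 0.0367 for Acta2 and from -0.23 to -0.09 for Myh11. The counts of genes below 0 without male LKO 3 are not given here.

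Prkg1, the cyclic GMP-dependent kinase that mediates relaxation by nitric oxide (chromosome 19, 30564487 to 31765033), had the smallest p over both sexes. It read 5.88, 4.70, 5.18 and 5.64 CPM in male WT and 5.02, 4.28, 3.11 and 3.89 CPM in male LKO. In females it read 7.13, 7.28, 6.69 and 8.63 CPM in WT and 5.14, 4.64, 3.42 and 6.57 CPM in LKO. The female groups did not overlap, as for 3.67% of all genes in that direction, and the male groups overlapped by 1 library each way. The log2 difference was -0.39 (SE 0.17) in males, -0.58 (SE 0.18) in females and -0.49 (SE 0.12) over both sexes, where its adjusted p was 0.101 in edgeR and 0.0123 in DESeq2. The Prkg1 interval overlaps Cstf2t on the opposite strand (mean 41.8 CPM), and the strand option of the counting was not stated. Whether the shared bases lie in counted exons of Prkg1 was not examined.

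Synpo2, an actin-bundling protein of the muscle dense bodies, came next. It stood at 73.7, 79.1, 70.3 and 90.4 CPM in male WT and at 67.4, 75.1, 51.0 and 67.9 CPM in male LKO. It stood at 104.5, 100.8, 94.5 and 108.4 CPM in female WT and at 75.5, 94.0, 75.1 and 95.5 CPM in female LKO. Groups overlapped in each sex, by a single library in females. The log2 difference was -0.26 in each sex (SE 0.11 in males, 0.09 in females) and -0.26 (SE 0.08) over both, with an adjusted p of 0.165.

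The other genes with the smallest p were a channel, a receptor and the phosphatase subunit. Kcnma1, the pore of the large-conductance potassium channel that damps excitation, measured 14.7, 14.3, 11.4 and 13.3 CPM in male WT, 13.0, 12.5, 9.98 and 10.9 CPM in male LKO, 14.3, 16.4, 14.7 and 17.4 CPM in female WT and 13.6, 13.7, 13.0 and 15.2 CPM in female LKO. Its log2 difference over both sexes was -0.20 (SE 0.07, adjusted p 0.302), and it overlapped between genotypes in each sex. Chrm2, the more abundant muscarinic receptor of gut muscle, measured 4.16, 5.65, 3.78 and 6.40 CPM in male WT, 4.05, 4.58, 2.35 and 3.01 CPM in male LKO, 6.09, 6.55, 7.13 and 5.001 CPM in female WT and 2.33, 7.69, 5.27 and 3.34 CPM in female LKO. The spread within female LKO was larger than the difference from female WT. The log2 difference of Chrm2 was -0.51 (SE 0.23) in males and -0.48 (SE 0.21) over both sexes, with adjusted p of 0.917 and 0.392. Ppp1r12b, on the partial transcript, measured 1.17, 4.13, 2.54 and 5.08 CPM in male WT, 2.18, 2.26, 1.997 and 0.986 CPM in male LKO, 3.28, 2.33, 4.28 and 1.87 CPM in female WT and 0.630, 3.78, 1.18 and 1.70 CPM in female LKO. It varied more within groups than any other of the 33 genes, and its log2 difference of -0.79 over both sexes had an SE of 0.36 and an adjusted p of 0.419.

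A further 3 genes were among the smallest p within a single sex, and of these Cacna1c alone had an unadjusted p below 0.05. Cacna1c, the pore of the L-type calcium channel, measured 20.1, 22.1, 19.3 and 23.0 CPM in male WT and 19.5, 19.3, 15.9 and 16.9 CPM in male LKO, a log2 difference of -0.23 (SE 0.10, adjusted p 0.900). Its female levels were 23.0, 28.0, 22.0 and 25.5 CPM in WT and 21.7, 29.2, 23.4 and 22.6 CPM in LKO, so that the female groups overlapped widely. Dmd measured 30.2, 22.7, 29.1 and 27.8 CPM in female WT and 23.9, 21.4, 19.0 and 27.3 CPM in female LKO, a log2 difference of -0.25 (SE 0.12, adjusted p 0.438). In males Dmd measured 21.2, 22.8, 21.1 and 26.1 CPM in WT and 26.7, 21.9, 23.6 and 24.3 CPM in LKO. The groups overlapped in each sex. Cald1 (caldesmon, an inhibitor of actin-activated myosin) measured 211.8, 198.4, 175.9 and 193.6 CPM in female WT and 152.5, 189.1, 169.6 and 198.4 CPM in female LKO, a log2 difference of -0.13 (SE 0.09, adjusted p 0.555). Kcnma1 stood at -0.17 (SE 0.09, adjusted p 0.487) in females.

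The actins and the myosin heavy chain had large adjusted p in each of these comparisons. Over both sexes the log2 difference, LKO minus WT, was 0.02 (SE 0.08) for Acta2, 0.15 (SE 0.16) for Actg2 and -0.08 (SE 0.08) for Myh11. In males these were -0.05 (SE 0.09), 0.12 (SE 0.09) and -0.17 (SE 0.09), and in females 0.09 (SE 0.11), 0.19 (SE 0.30) and 0.02 (SE 0.13). The smallest of these adjusted p was 0.763.

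A difference between the sexes in the effect of genotype was not detected for any of the 33 genes (0 of 33, against 0.0% of 15598 genes, at an adjusted p below 0.05 in edgeR, and 0 in DESeq2). At an unadjusted p below 0.05, 476 genes (3.05%) had a lower effect in males, none of them among the 33, and 403 (2.58%) a higher one, of which 1 was among the 33. The fitted difference was below 0 for 27 of the 33, beside 51.2% of all genes, with a median of -0.13. Male LKO 3, the lowest library for 24 of the 33, enters this count, and the count without it is not given here. The gene with an unadjusted p below 0.05 was Dmd, whose effect was higher in males by 0.33 (SE 0.16, adjusted p 0.845) on the log2 scale. The next smallest p belonged to Cacna1c, with -0.21 (SE 0.15), Myl9, with -0.22 (SE 0.16), Tpm2, with -0.26 (SE 0.20), and Tagln, with -0.21 (SE 0.17). Myl9 read 475.5, 478.1, 497.3 and 426.9 CPM in male WT, 436.2, 497.9, 347.6 and 481.3 CPM in male LKO, 550.5, 677.6, 478 and 561.7 CPM in female WT and 551.4, 735.7, 607.6 and 571 CPM in female LKO. Tpm2 read 338.2, 333, 359.1 and 310.6 CPM in male WT, 315.5, 366.6, 246.2 and 340.2 CPM in male LKO, 375.6, 525.8, 318.5 and 386.3 CPM in female WT and 394.7, 536.5, 471.8 and 409.6 CPM in female LKO. Both were lowest in male LKO 3 and highest in female LKO 2, and the genotypes overlapped in each sex. For Acta2 the difference was -0.15 (SE 0.16), for Actg2 -0.07 (SE 0.33) and for Myh11 -0.19 (SE 0.16).

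The comparison of the sexes gave lower fitted levels in males for most of the 33 genes. In control mice 32 of the 33 genes had a lower fitted level in males than in females, beside 51.8% of all genes. Only Cald1 had an adjusted p below 0.05 in edgeR (1 of 33, against 0.25% of 15229 genes), with a log2 difference of -0.39 (SE 0.08, adjusted p 0.0464). Its levels were 155.9, 152, 132.2 and 153.7 CPM in male WT, all below the lowest female WT library at 175.9 CPM. The call was lost when any library but female WT 3 was left out, with adjusted p from 0.0467 to 0.15 over the 8 fits, and with scaling by relative log expression. DESeq2 called 4 genes, all lower in males, beside 0.729% of all genes. In all, 23 of the 33 genes were lower at an unadjusted p below 0.05, where 7.72% of all genes were, and 12 had groups without overlap, where 4.14% did.

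Among the control mice the next smallest p belonged to Synpo2, with a log2 difference of -0.38 (SE 0.08, adjusted p 0.0684). Ppp1r14a, an inhibitor of myosin phosphatase, stood at -0.73 (SE 0.18), Mylk at -0.28 (SE 0.07) and Jph2, a junctophilin that ties the cell membrane to the calcium store, at -0.33 (SE 0.08), with adjusted p from 0.115 to 0.136. Acta2 stood at -0.31 (SE 0.11), Actg2 at -0.38 (SE 0.24) and Myh11 at -0.22 (SE 0.09).

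In the LKO mice none of the 33 genes had an adjusted p below 0.05 in edgeR (0 of 33, against 0.0984% of 15250 genes), the smallest being 0.0674. The count depended on the test, since DESeq2 called 16, all lower in males, beside 3.57% of all genes. It also depended on single libraries, with 5 genes called without female LKO 4 and 1 without male LKO 2. In edgeR 26 genes were lower at an unadjusted p below 0.05, where 11.7% of all genes were, and 15 had groups without overlap, where 6.43% did. The smallest p belonged to Tagln, with a log2 difference of -0.47 (SE 0.10), Ppp1r14a, with -0.91 (SE 0.20), Csrp1 (a LIM protein of actin filaments), with -0.43 (SE 0.10), Acta2, with -0.45 (SE 0.10), and Des, with -0.55 (SE 0.13). Myh11 stood at -0.40 (SE 0.13) and Actg2 at -0.44 (SE 0.20).

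Both genotypes were then fitted together with genotype as a covariate, a comparison added after the sex differences within each genotype had been seen. Of the 33 genes, 25 were lower in males at an adjusted p below 0.05 and 0 were higher, against 11.0% of 15598 genes called, 5.44% lower and 5.61% higher. DESeq2 called 27, all lower, beside 7.53% of all genes. The median log2 difference of the 33 genes was -0.34, beside -0.001 over all genes. For 2 genes, Mylk and Des, all 8 male libraries lay below all 8 female libraries, where 0.346% of all genes did. The titles carry a number for each mouse whose meaning is not given. With this number as a linear covariate 4 of the 33 genes were called, while the median was -0.32. Leaving out single libraries gave 16 (without female WT 2) to 26 (without female WT 3) calls, and without the 4 libraries rich in Ms4a1 there were 15, with a median of -0.32.

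The thin filament genes, which form and regulate the actin filament, were lower in males for 7 of 8. Acta2 had a lowest, median and highest level of 676.6, 862.7 and 933.7 CPM in males and of 862.4, 1058 and 1305 CPM in females, so that the sexes overlapped. Its log2 difference was -0.38 (SE 0.08, adjusted p 0.00818). The tropomyosins differed by -0.21 (SE 0.05) for Tpm1 and -0.38 (SE 0.10) for Tpm2, and the actin-binding proteins by -0.34 (SE 0.07) for Cald1, -0.39 (SE 0.10) for Cnn1 (calponin) and -0.36 (SE 0.08) for Tagln. Lmod1 (leiomodin, which nucleates actin filaments) differed by -0.25 (SE 0.08). Actg2 was the exception, since its -0.41 had an SE of 0.16 and an adjusted p of 0.110.

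Of the 6 genes of myosin and its phosphorylation, 4 were lower in males. Ppp1r14a had the largest difference of the 33 genes. It lay between 4.27 and 7.55 CPM in males (mean 5.41 ± 1.05, SD, n = 8) and between 6.41 and 13.4 CPM in females (mean 9.57 ± 2.34, SD, n = 8), and the sexes overlapped. Its log2 difference was -0.82 (SE 0.14, adjusted p 0.00258), a 1.76-fold higher level in females. Myh11 differed by -0.30 (SE 0.08, adjusted p 0.0287), Myl9 by -0.37 (SE 0.08) and Mylk by -0.30 (SE 0.06). Prkg1, at -0.37 (SE 0.12), had an adjusted p of 0.0557, and Ppp1r12b stood at 0.13 (SE 0.36).

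Of the 9 genes of the cytoskeleton and its attachment, 8 were lower in males. Des differed by -0.45 (SE 0.10, adjusted p 0.0147), and its partner in intermediate filaments, Synm (synemin), by -0.33 (SE 0.09). The actin cross-linker Flna (filamin A) differed by -0.35 (SE 0.08), Csrp1 by -0.37 (SE 0.07) and Synpo2 by -0.38 (SE 0.08). Smaller differences were seen for Smtn (smoothelin), at -0.27 (SE 0.07), Nexn (nexilin), at -0.31 (SE 0.09), and Pgm5, a protein of adherens junctions in muscle, at -0.35 (SE 0.08). The Pgm5 interval shares 1401 bases with Tmem252 on the opposite strand (mean 113.9 CPM). If strand was not used, reads of the 2 genes cannot be told apart where these bases lie in counted exons. Whether they do was not examined. Dmd, which links the cytoskeleton to the matrix, stood at -0.09 (SE 0.09, adjusted p 0.491).

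Of the 9 genes of channels, calcium handling and receptors, 6 were lower in males. They were Cacna1c, at -0.32 (SE 0.08), both subunits of the large-conductance potassium channel, with Kcnmb1 at -0.31 (SE 0.10) and Kcnma1 at -0.24 (SE 0.07), Ryr2, at -0.40 (SE 0.12), Jph2, at -0.40 (SE 0.09), and the calmodulin-binding peptide gene Pcp4, at -0.29 (SE 0.09). Casq2 (calsequestrin, which holds calcium in the store) stood at -0.27 (SE 0.09, adjusted p 0.0562). The muscarinic receptors did not pass, with Chrm2 at -0.33 (SE 0.21) and Chrm3 at 0.00 (SE 0.10). Myocd, the coactivator, lay between 1.61 and 2.64 CPM in males and between 2.23 and 3.78 CPM in females, a difference of -0.36 (SE 0.14, adjusted p 0.0909).

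**Figure D4:**
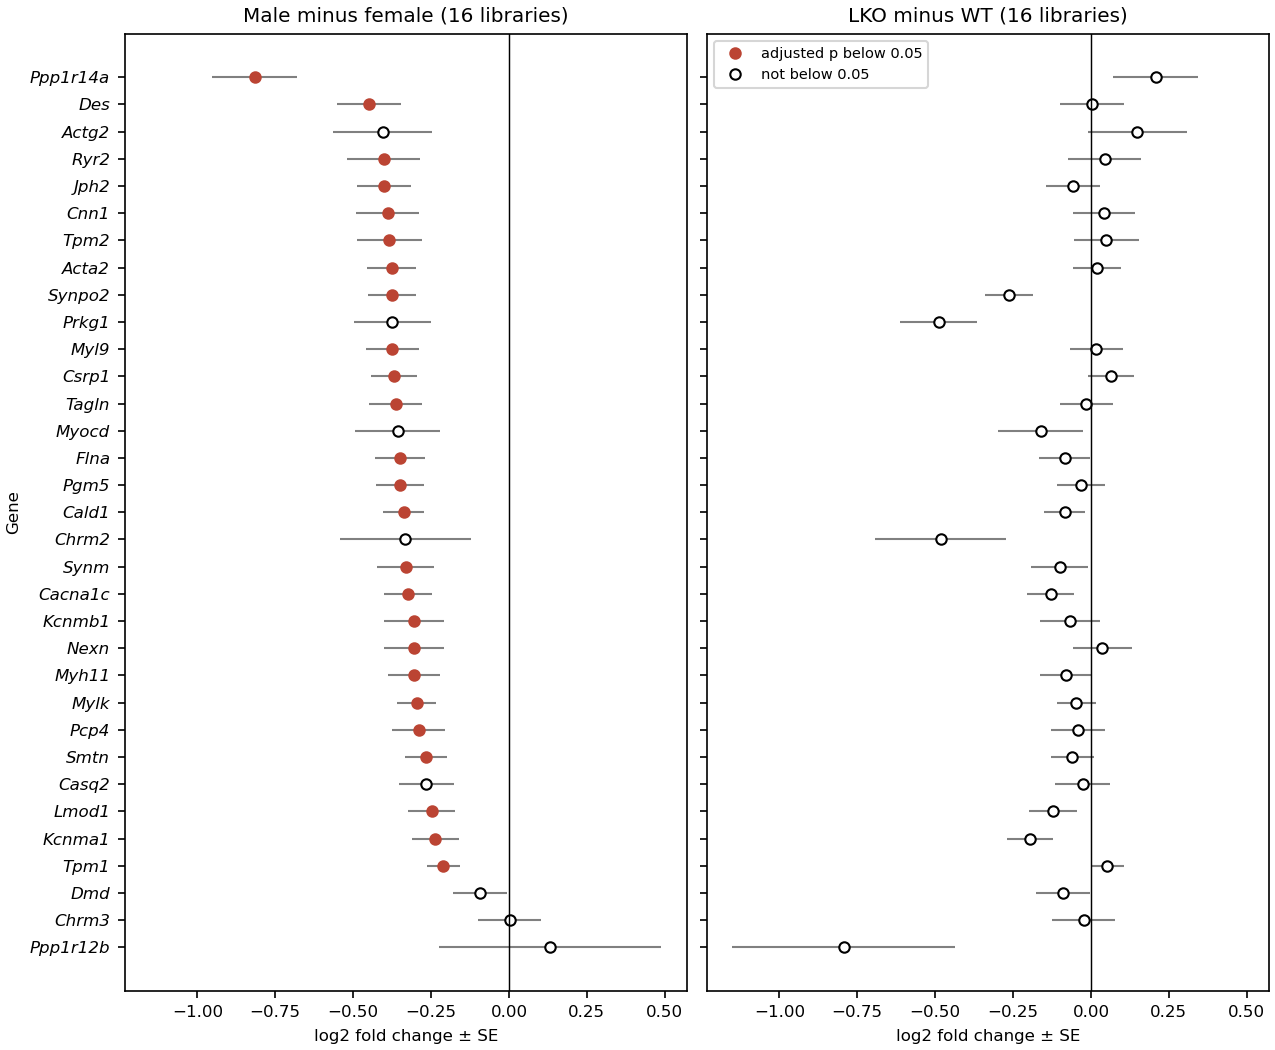
Log2 fold change with its SE for the 33 genes, male minus female on the left and LKO minus WT on the right, each over 16 libraries, with filled points at an adjusted p below 0.05. On the left 25 points are filled and all of these are below 0, and on the right none is filled.

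Genes that work with these proteins but were not among the 33 were examined as well. Of 34 contractile partners and regulators, 6 were lower in males and 1 was higher in the comparison of both genotypes, with a median log2 difference of -0.09. The 6 were the calcium pump gene Atp2b4, the caveolar genes Cav1 and Cavin1, the small heat shock protein gene Cryab, and Gucy1a1 and Mrvi1 of nitric oxide signalling, at -0.18 (Cav1) to -0.45 (Cryab). The other was Atp2a2, the calcium pump of the store, at 0.22 (SE 0.06). Srf itself, the partner of myocardin, stood at -0.04 (SE 0.05, adjusted p 0.573). In the comparison of LKO with WT over both sexes 0 of the 34 were called.

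Markers of other cell types in the ileal wall also differed between the sexes. In the comparison of the sexes, 2 of 4 markers of interstitial cells of Cajal (Kit and Ano1), the pacemaker cells of gut muscle, were lower in males, and their summed level was 71.8 to 99.4 CPM in males, compared with 92.7 to 118.9 CPM in females. Of 7 enteric neuron markers 2 were lower (Tubb3 and Uchl1), all 7 had a log2 difference below 0 with a median of -0.37, and their sums were 33.5 to 58.6 CPM in males, compared with 44.4 to 74.7 CPM in females. Of the 4 markers of pericytes, which wrap small vessels, 1 was lower (Rgs5), and male sums of 277.8 to 434.9 CPM all lay below the female ones of 437 to 502.3 CPM. Rgs5 made up most of these sums, at 215.4 to 357.6 CPM in males and 365.2 to 415.5 CPM in females. Abcc9, Kcnj8 and Notch3 each overlapped between the sexes. Most epithelial markers went the other way, with 3 of 8 higher in males (Epcam, Krt20 and Vil1). The 8 markers summed to 20610 to 22500 CPM in males, compared with 17770 to 21020 CPM in females. Of the 8 markers, 7 had a log2 difference above 0 and 1 below 0. In control mice alone, 0 were called higher and 1 was called lower in males. Lgr5 stood at 27.01 to 28.78 CPM in male WT, below its 33.75 to 37.98 CPM in female WT. The part of these cell types in the differences of the muscle genes was not tested.

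The remaining lists were read in the same comparison. Fibroblast markers had 2 of 5 lower in males (Dcn and Lum), and male LKO 3, lowest for the muscle genes, had the highest fibroblast sum at 2142 CPM. The collagen genes Col1a1 (456.2 CPM), Col1a2 (478.3 CPM) and Col3a1 (963.6 CPM) were each highest in that library. Dcn, at 197.4 CPM, was lowest there, and Lum, at 46.98 CPM, was not at its highest, so the markers did not peak there as a set. Endothelium had 1 of 4 lower (Pecam1), and enteric glia (0 of 4), PDGFRA+ cells (0 of 3), mesothelium (0 of 4) and B cells (0 of 4) had none. The log2 difference was nevertheless below 0 for all 4 markers of enteric glia (median -0.30), mesothelium (median -0.18) and B cells (median -1.50). It was below 0 for 1 of 3 markers of PDGFRA+ cells (median 0.04), beside 50.2% of all genes. None of these markers was at 0 in any library. Skeletal muscle RNA was low, with Myh1, Myh4 and Tnnt3 at 0 in some libraries and 2 of 6 genes passing the filter, although Acta1 (skeletal alpha actin) reached 157.8 CPM in male LKO 1 and lay between 25.4 and 93.3 CPM elsewhere. Of the cardiac genes Myh6 was at 0 in some libraries, and Myl7 was higher in males (1 of 3 tested). In LKO against WT over both sexes the 1 marker called was Kit, at 57.5 ± 7.06 CPM in LKO and 68.5 ± 6.26 CPM in WT (SD, n = 8 each), a log2 difference of -0.25 (SE 0.05, adjusted p 0.0470 in edgeR).

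Likeness to Myh11 described how far the genes rose and fell together. Over the 16 libraries the median Pearson r of log2 CPM with Myh11 was 0.83 for the other 32 genes, beside 0.00 over 15597 genes. It was 0.74 on deviations from the group means, 0.72 in males and 0.81 in females, and 0.71 without female LKO 2 and male LKO 3, the libraries farthest from the median of Myh11. By a permutation test with 1e+05 resamples, 26 of the 32 had an adjusted p below 0.05 with r above 0, and 617 of all 15597 genes did. These points share the tissue piece and its depth, and the genes are not independent of each other.

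The nearest gene was Flna, with r of 0.97 and Spearman's rho of 0.96 (permutation adjusted p 0.00355). Synm (r 0.94), Myl9 (0.93), Tagln (0.93), Smtn (0.92), Tpm2 (0.91), Cacna1c (0.91), Acta2 (0.90) and Jph2 (0.90) followed. At r of at least 0.9 there were 22 genes in all, 9 of them among the 33. The 10 nearest of the other genes with a mean of at least 1 CPM were Tns1 (r 0.95, rho 0.88), Dmpk (0.93, 0.88), Atp2b4 (0.93, 0.88), Col27a1 (0.92, 0.92), Shank1 (0.92, 0.86), Mrvi1 (0.91, 0.89), Pygb (0.91, 0.87), Mtss1l (0.91, 0.89), Adcy1 (0.91, 0.72) and Eml1 (0.90, 0.87). Without the 2 farthest libraries their r lay between 0.77 (Adcy1) and 0.93 (Pygb).

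Some of the 33 genes did not follow Myh11. Dmd had r of -0.15, Chrm3 0.16, Ppp1r12b 0.27 and Prkg1 0.39, with permutation adjusted p of 0.761, 0.732, 0.541 and 0.330. Kcnma1 (0.60) and Myocd (0.66) also missed the threshold, with adjusted p of 0.104 and 0.0679. Prkg1 and Kcnma1 followed Myh11 in males (r 0.73 and 0.70) but not in females (r -0.21 and -0.04), a difference that was not tested. Male LKO 3 was the lowest male library for Myh11 (746.7 CPM), Prkg1 (3.11 CPM) and Kcnma1 (9.98 CPM) alike. The male r may therefore rest on this library, and r in males without it was not computed.

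**Figure D5:**
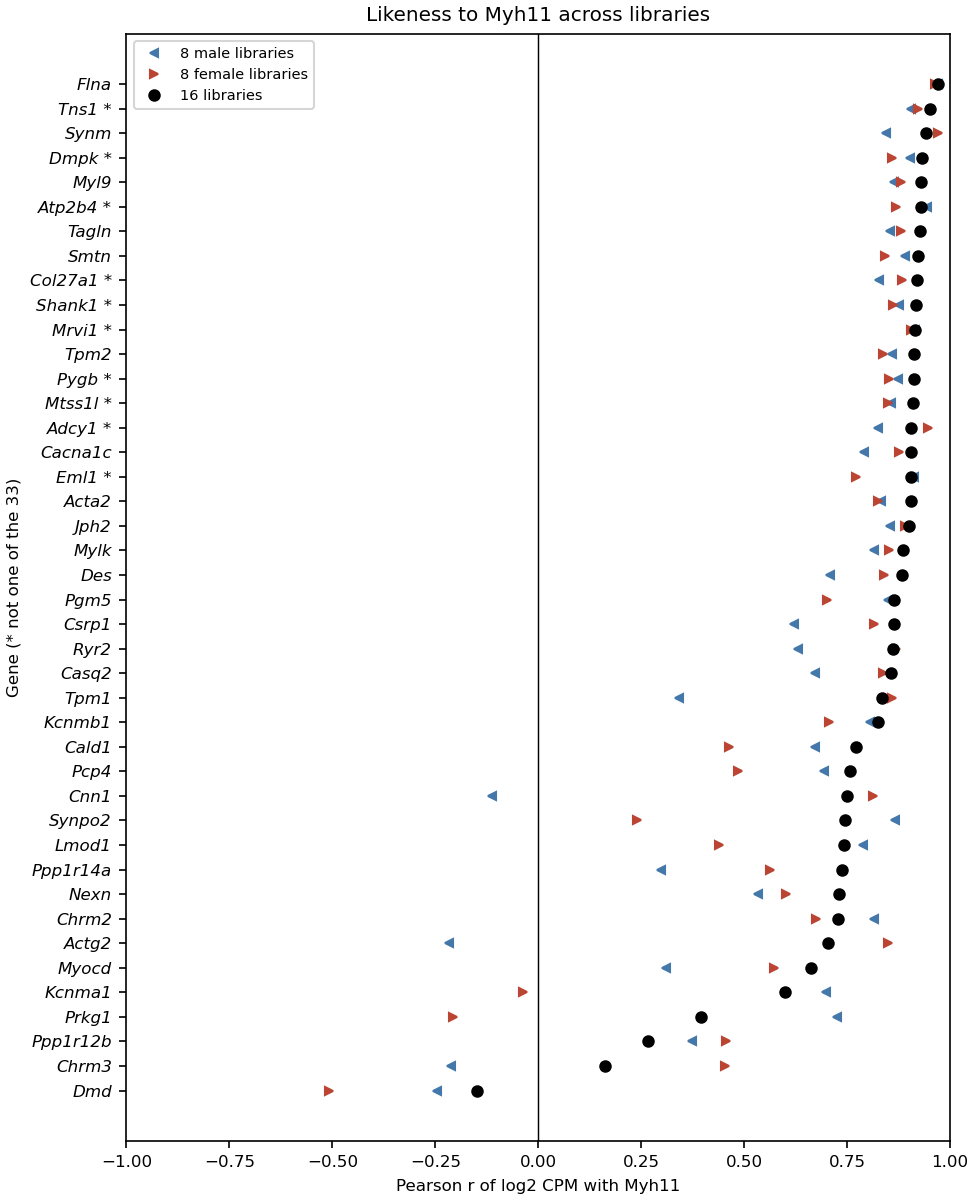
Pearson r of log2 CPM with Myh11 over 16 libraries (black) and within the 8 male (blue) and 8 female (red) libraries, for the other 32 genes and the 10 nearest further genes (asterisk). Flna has the highest r at 0.97, Dmd the lowest at -0.15, and Actg2, Cnn1, Chrm3 and Dmd lie below 0 in males.

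Actg2 was taken as a further anchor, after its values by library had been seen. Its nearest genes were Cnn1 (r 0.94, rho 0.86) and Des (r 0.90, rho 0.76), the only genes with r of at least 0.9, followed among the 33 by Csrp1 (0.88), Tpm1 (0.83), Tagln (0.83) and Tpm2 (0.82). No gene had a permutation adjusted p below 0.05, the value for Cnn1 being 0.0780. The unadjusted permutation p of Cnn1, 1e-05, was the smallest that 1e+05 resamples can give. After adjustment over all genes compared, even this smallest p stayed above 0.05. The test therefore cannot decide whether Cnn1 passes the threshold. Without female WT 2 and female LKO 2, the farthest libraries, r with Cnn1 was 0.89 and with Des 0.80. The median r of the 32 genes with Actg2 was 0.55 over 16 libraries and 0.28 without these libraries. For Myh11 r with Actg2 was 0.70 and 0.38. Both libraries are female and enter the female r values that follow. Cnn1 followed Actg2 in males (r 0.91) and in females (r 0.96), while Des did so in females (0.99) more closely than in males (0.48). The median r of the 32 genes with Actg2 was 0.70 in females and -0.15 in males, and r between Actg2 and Myh11 was 0.85 in females and -0.22 in males, a difference that was not tested.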

How the data were processed

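Ileum RNA was sequenced from 16 mice in 4 groups of 4, taken from the sample titles. The authors made stranded poly(A) libraries, aligned single-end reads to mm10 with STAR 2.5.2, keeping uniquely mapped reads, and counted exon reads for 1 transcript per gene with HOMER 4.10 (versions per the submitters' processing notes), so the deposited values are raw counts. The strand option of the counting was not given in the sources used here. Reads that map to several places were dropped, which can lower counts of genes with close copies, such as the actins.

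For testing, edgeR 4.0.16 in R 4.3.3 fitted quasi-likelihood models to the counts (robust fits, TMM, filterByExpr by group, Benjamini-Hochberg threshold 0.05), fitted on the libraries compared. Separate animals are taken from the titles. Likeness used log2 CPM with a prior count of 2 and two-sided permutations. Script steps were tested on simulated data. The 33 genes, the lists and the rules were chosen with earlier results of these data known. Fold changes were given for Acta2, Actg2, Myh11, every gene called and, with fewer than 5 calls, the 5 smallest p. Alternatives were DESeq2 1.42.0, other scalings, no filter, the newer edgeR method, a replicate block, the title number, thinning of the deepest library, and leaving out libraries. The sex comparison over 16 libraries, the Ms4a1 limit of 5 CPM and the Actg2 anchor were added after seeing the data. Of the enteric neuron list, 1 gene is not reported here, and its count and sums are over the others.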

Additional observations from a re-analysis of the deposited data

Results flagged for a closer look

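Each of the 33 genes was examined in each group of 4, 132 groups in all, for a library far from the other 3 by Dixon's criterion, which chance meets in about 1 in 20 groups, and 6 groups met it, through 3 libraries. Female WT 2 stood above the other female WT libraries for Actg2 (850.4 CPM, others 424.8 to 448.5 CPM), Des (779.2 CPM, others 491.8 to 515.2 CPM) and Cnn1 (358.9 CPM, others 206 to 230.7 CPM). Male LKO 4 stood above its group for Actg2, at 541.9 CPM with the others between 412.4 and 426.9 CPM. Male WT 3 stood below its group for Cald1, at 132.2 CPM with the others between 152 and 155.9 CPM, and for Lmod1, at 68.1 CPM with the others between 72.8 and 73.4 CPM.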

How the results depend on the processing

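Counts of calls among the 33 genes were within 1.5 times the reported count in 121 of 141 refits, and the median r with Myh11 kept its direction in each of its alternatives. These refits include comparisons whose reported count was 0, so their share does not measure how stable the sex comparisons were. Over both sexes, LKO against WT gave 1 call in DESeq2. Male WT against female WT gave 4 in DESeq2, 2 with no filter, and 0 with scaling by relative log expression, with the title number as a covariate or without the libraries rich in Ms4a1, and 0 to 1 when 1 library was left out. Male LKO against female LKO gave 16 in DESeq2, 2 with upper-quartile scaling, 4 with no filter and 0 to 5 when 1 library was left out. Males against females in both genotypes gave 4 with the title number, 15 without the Ms4a1-rich libraries, and 16 to 26 when 1 library was left out. The cause of these changes was not tested.

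Same-numbered libraries of different groups deviated together, with a correlation over 0.1, in 6 of 24 pairs, so the numbers were not taken to pair the mice. With the replicate number as a block, 26 of the 33 genes were called between the sexes in both genotypes and 0 between the genotypes in any comparison.

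Some differences between groups, none of them called, changed sign. Without the Ms4a1-rich libraries, LKO minus WT in females was -0.10 for Acta2, -0.26 for Actg2 and -0.24 for Myh11, and over both sexes -0.062 for Acta2 and -0.0662 for Actg2. The difference between the sexes in the genotype effect was then 0.0583 for Acta2, 0.33 for Actg2, 0.0892 for Myh11, 0.0133 for Tagln and 0.0037 for Tpm2. With the title number, which is higher in every male LKO than in every male WT mouse, LKO minus WT in males was -0.11 for Actg2. Leaving out 1 library gave -0.11 to 0.0367 for Acta2 in males, -0.10 to 0.10 for Myh11 in females, -0.0294 to 0.0648 for Acta2 over both sexes and -0.37 to 0.0338 for the sex difference in the Actg2 effect. The median r with Actg2 was -0.15 in males. Myocd, with 31 to 151 counts per library, carries more counting error than the abundant genes.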
